A study of Apeltes quadracus with 21 samples.

Results

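A blank pterygiophore was compared with the third dorsal spine across all gene models of *Apeltes quadracus*, the four-spine stickleback. The comparison was between 6 of the 21 libraries analysed here, and all 21 entered the fit. The 6 were 3 libraries of blank pterygiophore (Pter) and 3 of the third dorsal spine (DS3), paired by fish. The members were chosen by tissue and genotype alone, and all 31532 gene models of the count table entered. The 3 fry each gave 7 tissues, and the other 15 libraries were of the first and second dorsal spines (DS1 and DS2), the last dorsal spine (DSL), and the anal (AF) and dorsal (DF) fins. All fry had 4 dorsal spines and the L/L genotype at *HOXDB*, and were sampled in the fin fold period (stage 31) from laboratory-raised Louisbourg clutches. L is the haplotype that was linked to fewer spines in that population. Each library held 1 dissected tissue of 1 fish. The design asks which genes differ between a midline bone that bears no spine and the spine just in front of it.

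A pterygiophore is a bone of the dorsal midline that lies below the skin and carries a spine or a fin ray, and a blank one carries neither. *Hox* genes encode homeodomain transcription factors that stand in clusters, and each is numbered by its paralogue group. Low-numbered groups are generally active further forward in the body, and high-numbered groups are restricted to the trunk's rear, the tail and the ends of limbs or fins. Teleost fish carry extra clusters from a genome duplication, which is why *HOXA10A* and *HOXA10B*, for example, are separate copies. *HOXDB* is the cluster of *HOXD4B*, *HOXD9B* and *HOXD11B*.

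The 6 libraries held between 27087112 and 32669291 counted reads. After low counts were filtered out 21134 gene models were tested, with 38 of the 47 that are named as *Hox* genes. The other 31485 gene models carry an ID without a gene name, so marker genes of bone, cartilage, muscle or skin could not be looked up and the tissue labels could not be checked against them. The 10 most abundant gene models took 26.6% to 28.4% of the reads in Pter libraries, against 21.9% to 24.8% in DS3 libraries. The Pter library of replicate 1 stood apart from the other Pter libraries in a small set of genes, described further on, and values without it are given beside each named gene model that did not pass without it.

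Between Pter and DS3, 3157 gene models (14.9% of those tested) differed at an adjusted p under 0.05. The test was edgeR's quasi-likelihood F test with fish as a block and Benjamini-Hochberg adjustment over all tested gene models. The spread and the fish terms were estimated from all 21 libraries, not from the 6 alone. Of the 3157 gene models, 1204 (5.7%) were higher in Pter and 1953 (9.24%) were lower. The larger differences were mostly losses in Pter. At 2-fold or more, 665 gene models passed (3.15%). Of these, 174 were higher (0.823% of those tested) and 491 were lower (2.32%). At 4-fold or more, 31 were higher and 166 lower, and at 16-fold or more, 5 were higher and 32 lower. The median difference among all tested gene models was -0.01 on the log2 scale. The 1204 higher gene models had a median difference of 0.56 and the 1953 lower ones a median of -0.60. In bulk tissue, fewer cells of a type and less RNA per cell cannot be told apart.

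Most of these differences had the same direction in each fish. Of the higher gene models, 1174 of 1204 were higher in Pter in 3 of 3 fish. Of the lower ones, 1932 of 1953 were lower in 3 of 3 fish, beside 48.1% of all tested gene models with a shared direction. These counts can include ties in a fish without reads in either tissue. STRG.4267 is such a case, with 0 reads in Pter and DS3 of replicate 1. The 3 Pter libraries lay wholly above the 3 DS3 libraries for 676 of the higher gene models, and wholly below them for 1239 of the lower ones, beside 7.25% and 10.1% of all tested gene models. The gene models were called from these same libraries, so this agreement follows in part from the selection and is no independent support. The number of calls rested on the pairing. Without fish in the model 657 gene models passed, 146 higher and 511 lower, and all 657 were among the 3157. Scaling also moved the balance of directions. With library totals in place of TMM factors (the scaling used here, which leaves out the most extreme genes) 283 were higher and 4063 lower, with the median of all gene models at -0.21, and with DESeq2 1737 were higher and 1814 lower. Single fish and libraries mattered as well. For 62 lower gene models the fish of replicate 2 had a difference over 1 log2 unit below both other fish. This held for 15 with the fish of replicate 1 and 21 with that of replicate 3. Among higher gene models, 23 had a difference over 1 above both other fish in that of replicate 1. The count of calls was 1703 without Pter replicate 1, 1809 without Pter replicate 2 and 1627 without DS3 replicate 2. In every one of the 6 fits that left out 1 Pter or DS3 library, 1125 of the 3157 calls held.

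**Figure D1:**
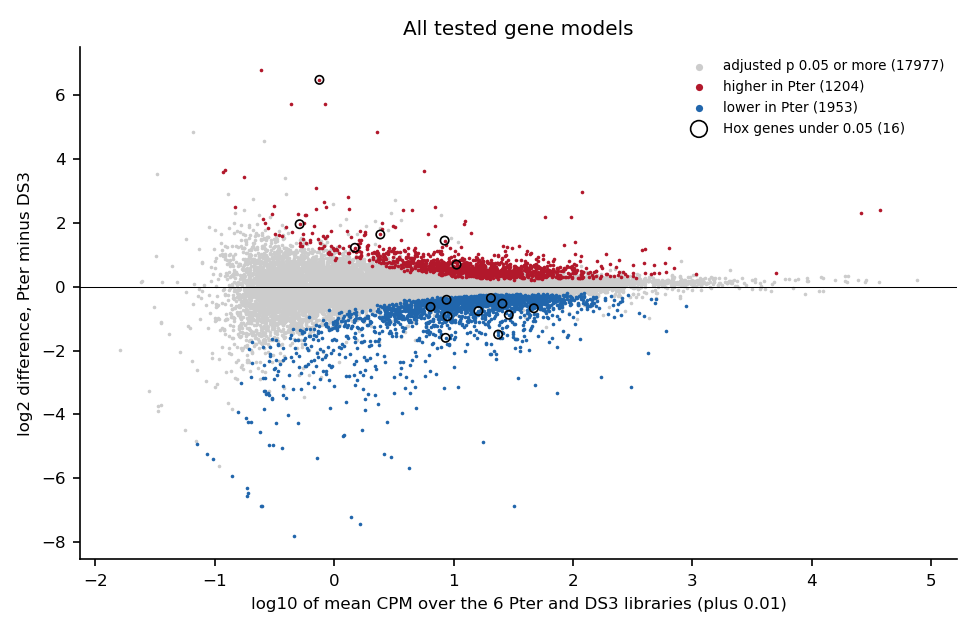
Each point is 1 of the 21134 tested gene models, with its mean level over the 6 Pter and DS3 libraries on the x axis (log10 of CPM, read counts scaled to a common library size) and the fitted log2 difference, Pter minus DS3, on the y axis. Red points (1204) were higher and blue points (1953) lower in Pter at an adjusted p under 0.05, black circles mark the 16 *Hox* genes that passed, and the blue points extend further from 0 than the red ones.

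Of the 38 tested *Hox* genes, 16 passed (42.1%, against 14.9% of all tested gene models), 6 of them higher and 10 lower in Pter. The 6 that rose in Pter were *HOXC11A*, *HOXC10A*, *HOXA10B*, *HOXA11B*, *HOXD11A* and *HOXD4B*, so that 5 of the 6 belong to paralogue groups 10 and 11. Of the other tested genes of groups 10 and 11, *HOXA10A* and *HOXA11A* fell. *HOXD10A* (0.18, adjusted p = 0.638) and *HOXD11B* did not pass. The 10 that fell were *HOXA4A*, *HOXA9A*, *HOXA10A*, *HOXA11A*, *HOXB4A*, *HOXB6A*, *HOXB8A*, *HOXB9A*, *HOXC6A* and *HOXC8A*. Without fish in the model 8 *Hox* genes passed, and without Pter replicate 1, 10 passed. The other 9 *Hox* gene models had at most 7 reads over the 6 libraries and were not tested, including all 4 models of the *HOXBB* cluster, *HOXA1A*, *HOXB1A*, *HOXB13A*, *HOXC13A* and *HOXC3A*.

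**Figure D2:**
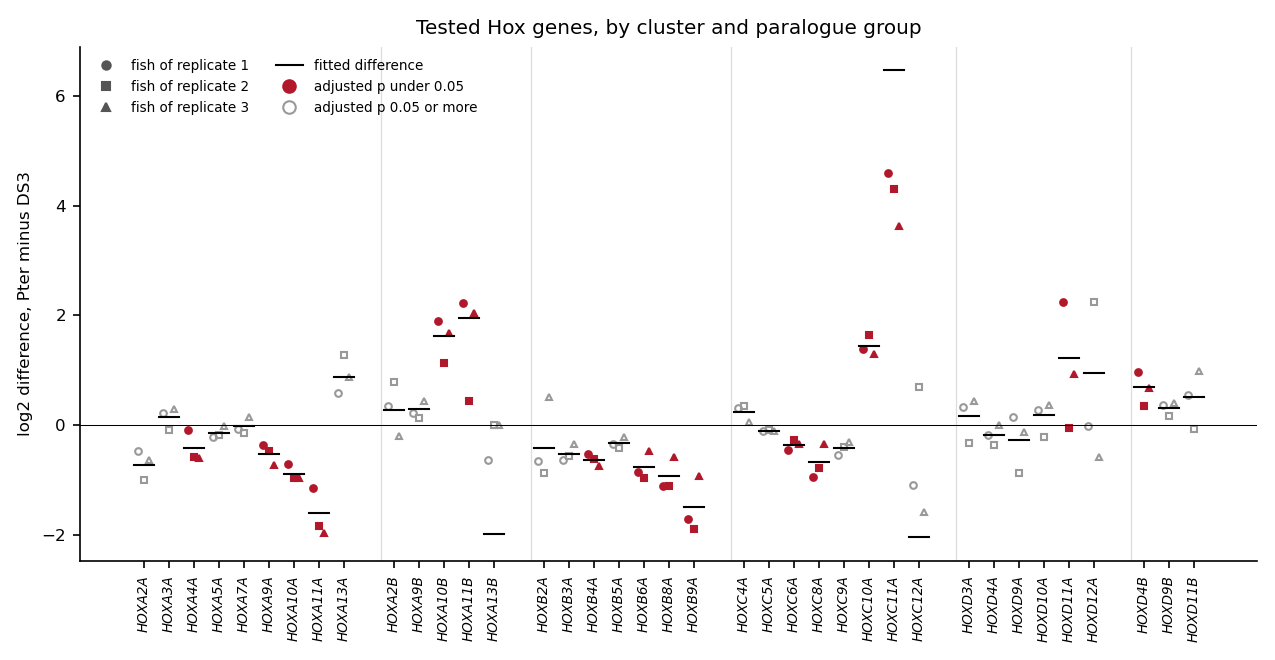
The log2 difference, Pter minus DS3, of the 38 tested *Hox* genes, ordered by cluster and paralogue group. Symbols are the 3 fish (from log2 CPM with a prior count of 2), filled red where the gene passed, and bars are the fitted difference, which lies beyond the symbols for genes with few reads in either tissue, such as *HOXC11A*. The fitted differences of all 7 tested genes of *HOXBA* lie below 0 and those of all 3 of *HOXDB* above it.

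The genes of *HOXDB*, the locus at which the fry were genotyped, are given first. *HOXD4B* had 15.5, 10.8 and 12.8 CPM (reads scaled to a common library size by TMM) in the 3 Pter libraries, against 7.90, 8.49 and 8.02 CPM in DS3. The Pter libraries were all higher than the DS3 libraries. The fitted log2 difference was 0.69 ± 0.175 (SE), 1.61-fold, with an adjusted p of 0.0114. The call was lost in 6 of the 19 alternative fits. These were the fits without fish in the model (adjusted p = 0.0890), without Pter replicate 1 (0.0856) and without DS3 replicate 2 (0.0551). It was also lost without the fish of replicate 1 or that of replicate 3, and with the 6 libraries alone and no fish term. *HOXD4B* overlaps another gene model on its strand, so its reads could be shared with that model.

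*HOXD9B* had 32.9, 25.3 and 28.2 CPM in Pter, against 25.5, 22.6 and 21.4 CPM in DS3. Its values were higher in Pter in 3 of 3 fish, but the ranges overlapped and the difference of 0.31 ± 0.144 did not pass (adjusted p = 0.158). *HOXD11B* had 21.1, 10.04 and 17.7 CPM in Pter, against 14.35, 10.6 and 8.95 CPM in DS3. It was higher in Pter in the fish of replicates 1 and 3 but not in that of replicate 2, and its difference of 0.51 ± 0.176 had an adjusted p of 0.0579. Without Pter replicate 2 that difference was 0.74 and passed, with an adjusted p of 0.0117. An adjusted p above the threshold does not show that these levels were alike.

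The last spine, which lies behind Pter, served to place these values. The DSL means were 13.2 CPM for *HOXD4B*, 49.0 CPM for *HOXD9B* and 31.3 CPM for *HOXD11B*. Pter minus DSL was -0.01 for *HOXD4B* (adjusted p = 0.977), -0.77 for *HOXD9B* (adjusted p = 0.000486) and -0.98 for *HOXD11B* (adjusted p = 0.000285), in a comparison where 26.7% of all tested gene models passed. Pter is shared by both comparisons. By these means Pter stood close to DSL for *HOXD4B*, and between DS3 and DSL for the other genes of the cluster.

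**Figure D3:**
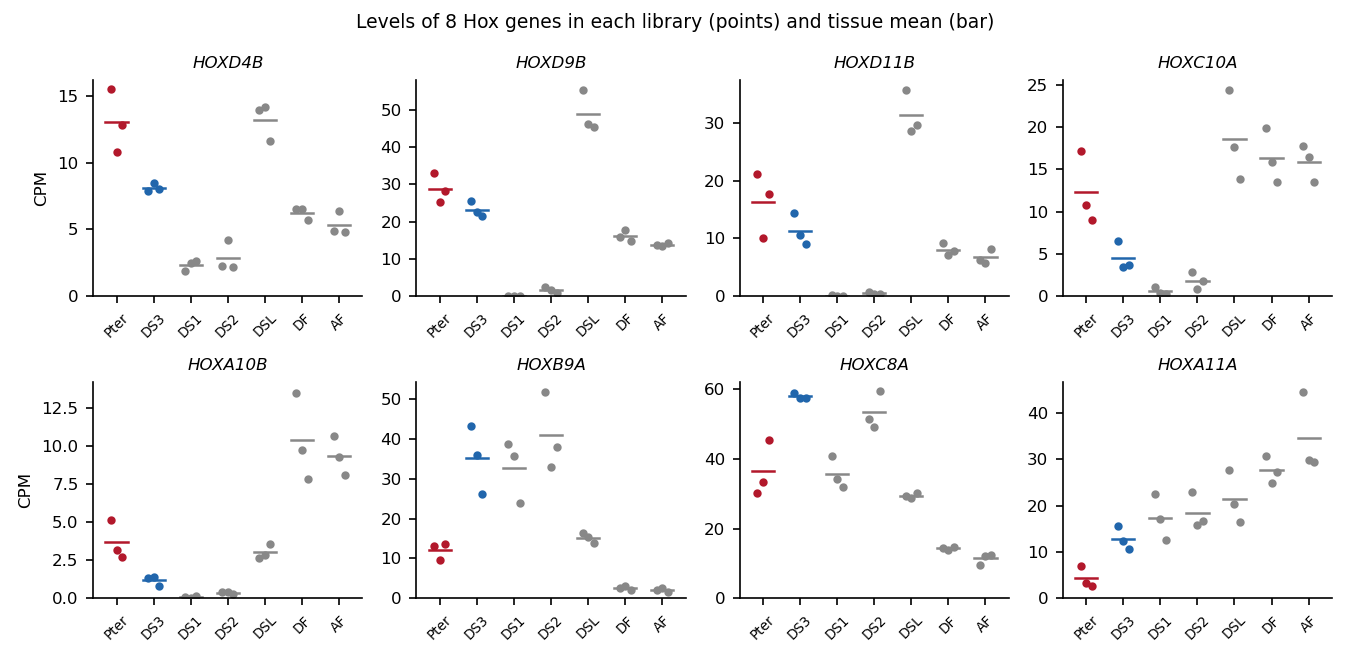
Levels of 8 *Hox* genes in CPM (y axis, from 0) in each library (points) with the tissue mean (bars), for Pter (red), DS3 (blue) and the other 5 tissues (grey). *HOXC10A* and *HOXA10B* are higher in all 3 Pter than in all 3 DS3 libraries, *HOXB9A* and *HOXC8A* are lower in Pter, and *HOXA11A* is lower in Pter than in any other tissue.

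Groups 10 and 11 of *HOXCA* and *HOXAB* gave the largest gains among *Hox* genes. *HOXC11A* had 2.43, 1.23 and 0.754 CPM in Pter, against 0.0371, 0 and 0 CPM in DS3. It was close to silent in DS3, with 100 reads over the 3 Pter libraries and 1 read over the 3 DS3 libraries, a ratio of 117 after scaling with a 95% counting interval of 20.5 to 4669. The call passed in every one of 19 alternative fits (adjusted p = 1.09e-05 with fish as a block). *HOXC11A* was also at 0 in every DS1 and DS2 library, and averaged 9.78 CPM in DSL, 37.5 CPM in DF and 46.6 CPM in AF.

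*HOXC10A*, the next gene of the same cluster on chromosome 12, had 17.1, 10.8 and 9.001 CPM in Pter, against 6.53, 3.43 and 3.63 CPM in DS3. The groups did not overlap, and the difference was 1.44 ± 0.202 (2.71-fold, adjusted p = 7.70e-05, and 0.0596 without fish in the model). The pair was 1 of the 8 runs of neighbouring tested gene models that were all at least 2-fold higher in Pter, none of which was longer than 2 gene models. *HOXA10B* had 5.14, 3.17 and 2.70 CPM in Pter, against 1.33, 1.42 and 0.798 CPM in DS3. Again all Pter libraries were higher, by 1.63 ± 0.237 (3.09-fold, adjusted p = 0.000112).

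*HOXA11B* and *HOXD11A* rose on few reads. *HOXA11B* had 1.28, 0.370 and 0.754 CPM in Pter, against 0.222, 0.257 and 0.133 CPM in DS3, a difference of 1.95 ± 0.527 (adjusted p = 0.0163) on 54 reads in Pter and 16 in DS3. *HOXD11A* had 3.58, 0.947 and 1.77 CPM in Pter, against 0.705, 0.986 and 0.898 CPM in DS3, a difference of 1.21 ± 0.329 (adjusted p = 0.0166). Its Pter value in the fish of replicate 2 was no higher than its DS3 value, and neither gene passed without fish in the model (adjusted p = 0.0851 for *HOXA11B* and 0.107 for *HOXD11A*) or without Pter replicate 1 (0.120 for *HOXA11B* and 0.170 for *HOXD11A*). Without DS3 replicate 1 the adjusted p was 0.0603 for *HOXA11B* and 0.120 for *HOXD11A*, and without DS3 replicate 3 it was 0.0822 for *HOXA11B*.

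The copies of groups 10 and 11 in *HOXAA* went the other way. *HOXA11A* had 6.97, 3.37 and 2.66 CPM in Pter, against 15.6, 12.3 and 10.5 CPM in DS3, and it was lower by a log2 difference of -1.60 ± 0.158 (3.04-fold lower, adjusted p = 1.48e-06). Its means in the other 5 tissues, between 17.4 CPM in DS1 and 34.6 CPM in AF, were all above the Pter mean of 4.34 CPM. *HOXA10A* had 25.9, 16.9 and 18.8 CPM in Pter, against 42.7, 33.2 and 36.6 CPM in DS3, a difference of -0.88 ± 0.12 (adjusted p = 4.75e-05, and 0.0532 without fish in the model). In mouse the Hox10 and Hox11 paralogues pattern the lumbar and sacral vertebrae and the limb bones. Here *HOXA10A* and *HOXA11A* fell in Pter while *HOXA10B* and *HOXA11B* rose. *HOXA9A*, beside *HOXA10A* on chromosome 10, had a difference of -0.53 (adjusted p = 0.00956, and 0.227 without fish in the model). Leaving out Pter replicate 1, Pter replicate 2 or DS3 replicate 3 gave adjusted p values of 0.0638, 0.0501 and 0.0831. Its Pter libraries lay between 19.6 and 23.9 CPM, below the DS3 libraries at 27.7 to 32.3 CPM. *HOXA4A* had a difference of -0.41 with overlapping libraries (adjusted p = 0.0273), and it did not pass without fish in the model (0.218), Pter replicate 2 (0.200), Pter replicate 3 (0.136), DS3 replicate 2 (0.0830) or DS3 replicate 3 (0.0887).

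No gene of *HOXBA* rose in Pter. Of its 9 gene models 7 were tested, and 4 passed as lower (57.1%, beside 9.24% of all tested gene models). The fitted differences of all 7 were negative, with a median of -0.64. *HOXB9A* had 13.1, 9.67 and 13.7 CPM in Pter, against 43.1, 36.0 and 26.2 CPM in DS3. The difference was -1.50 ± 0.169 (2.83-fold lower, adjusted p = 6.02e-06), it did not overlap and it held in all 19 alternative fits. *HOXB8A* fell by 0.93 (adjusted p = 0.000415) and *HOXB6A* by 0.76 (adjusted p = 0.000279), both without overlap. *HOXB4A* fell by 0.64 (adjusted p = 0.0220, but 0.224 without fish in the model). In 5 of the 6 fits that left out 1 library *HOXB4A* did not pass, with adjusted p values of 0.0833, 0.0729 and 0.0814 without Pter replicates 1, 2 and 3, and 0.0843 and 0.0625 without DS3 replicates 2 and 3. *HOXB5A* was also lower in each Pter library than in any DS3 library, but with a difference of -0.33 it did not pass (adjusted p = 0.158).

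The same direction was found in the *HOXCA* genes *HOXC8A* and *HOXC6A*. *HOXC5A* (-0.11, adjusted p = 0.641) and *HOXC4A* (0.24, adjusted p = 0.285) of that cluster did not pass. *HOXC8A* had 30.3, 33.5 and 45.3 CPM in Pter, against 58.8, 57.3 and 57.5 CPM in DS3, a difference of -0.68 ± 0.119 (1.60-fold lower, adjusted p = 0.000673). The differences in the 3 fish were -0.955, -0.775 and -0.344. The call was lost without the fish of replicate 2, and with the 6 libraries alone and no fish term. In mouse the group 6 to 9 genes act in the thoracic region. *HOXC6A* had 17.8, 17.8 and 18.4 CPM in Pter, against 24.4, 21.6 and 23.4 CPM in DS3, a smaller difference of -0.36 ± 0.0848 that still did not overlap (adjusted p = 0.00700). Leaving out Pter replicate 1 gave -0.29, which missed the threshold (adjusted p = 0.0665). The call of *HOXC6A* was also lost without the fish of replicate 1 or that of replicate 2, and with the 6 libraries alone and no fish term. A gene model on the other strand overlaps *HOXC6A*, and no source used here says if reads were assigned by strand. Within *HOXCA*, therefore, *HOXC10A* and *HOXC11A* rose and *HOXC8A* fell in the same Pter libraries.

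Other *Hox* genes came near the threshold or had almost no reads in either tissue. *HOXC9A*, between the rising and falling genes of its cluster, had 17.0, 15.1 and 14.4 CPM in Pter, against 25.0, 19.9 and 17.8 CPM in DS3, a difference of -0.42 ± 0.146 that did not overlap but did not pass (adjusted p = 0.0561). *HOXA2A* had 1.70, 1.36 and 1.64 CPM in Pter, against 2.37, 2.79 and 2.59 CPM in DS3 (-0.73 ± 0.252, adjusted p = 0.0567). The genes that mark the ends of limbs and fins in other vertebrates, groups 12 and 13, were close to 0 in both tissues. *HOXC12A* had 1 read in Pter and 6 in DS3, *HOXD12A* had 10 in Pter and 6 in DS3, and *HOXA13B* had 0 in Pter and 1 in DS3. *HOXA13A* had 1.15, 0.617 and 0.975 CPM in Pter, against 0.742, 0.214 and 0.499 CPM in DS3 (0.87 ± 0.389, adjusted p = 0.143), and averaged 22.5 CPM in DF and 22.04 CPM in AF. All 4 had far higher means in the fins, at least 9.78 CPM, and no difference between Pter and DS3 was detectable at this depth.

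By paralogue group, 19 genes of groups 1 to 8 were tested, of which 1 rose and 6 fell in Pter, with a median difference of -0.33. Of the 19 tested genes of groups 9 to 13, 5 rose and 4 fell, with a median of 0.29. Of the 13 tested genes of groups 10 to 13, 5 rose and 2 fell, with a median of 0.87. This cut was not among the planned lists, and it leaves out *HOXA9A* and *HOXB9A*, which fell. Its median is the value of *HOXA13A*, which had 102 reads over the 6 libraries and did not pass. Of all tested gene models, 5.7% were higher and 9.24% lower in Pter. The rank correlation of paralogue group and difference over the 38 genes was 0.162 (Spearman, as a description; the genes share libraries and clusters). By cluster, the medians were -0.41 in *HOXAA*, 0.29 in *HOXAB*, -0.64 in *HOXBA*, -0.23 in *HOXCA*, 0.51 in *HOXDB* and 0.17 in *HOXDA*, the last of which turned to -0.04 with library totals and was 0.04 without Pter replicate 1. Without the fish of replicate 3 the median of *HOXDB* was 0.28, and without Pter replicate 2 that of groups 9 to 13 was 0.16. By its mean, Pter lay between DS3 and DSL for 21 of the 38 genes, below both spines for 11 and above both for 6. The same count was not made over all tested gene models, so it cannot be read as particular to *Hox* genes. The 11 include *HOXC12A* and *HOXA13B*, which had almost no reads in Pter or DS3. *HOXA4A*, *HOXA9A*, *HOXA10A*, *HOXA11A*, *HOXB6A* and *HOXB9A* passed among the 11, and *HOXA10B* among the 6.

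Outside *Hox*, losses were ranked among gene models with a mean of at least 5 CPM in DS3 that fell in 3 of 3 fish. The 8 largest of these were gene models with a higher mean in each of the 4 spines than in Pter. Larger losses at lower levels, such as STRG.21236 below, were outside this ranking. STRG.29213 had 0.138, 0.782 and 0.665 CPM in Pter, against 28.9, 111 and 53.1 CPM in DS3, so that every DS3 library was far above every Pter library. The difference was -6.87 ± 0.686 (117-fold lower, adjusted p = 1.69e-06). It averaged 80.2 CPM in DS1, 72.0 CPM in DS2 and 85.5 CPM in DSL, but 0.629 CPM in DF and 1.26 CPM in AF. Expression of this gene model was therefore high in the 4 spines and low in Pter and the fins.

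STRG.18434, a single-exon model on chromosome 14 (1362793 to 1364751, plus strand, in the authors' assembly), had 0.184, 0.165 and 0.133 CPM in Pter, against 8.23, 8.62 and 8.15 CPM in DS3. Its libraries hardly varied within a tissue, and the difference of -5.67 ± 0.265 (51.0-fold lower) had an adjusted p of 2.97e-11. STRG.10827, on chromosome 8 (8600371 to 8609329, minus strand), had 1.42, 0.988 and 1.11 CPM in Pter, against 41.2, 32.4 and 28.4 CPM in DS3. It fell by 4.86 on the log2 scale (29.1-fold lower), with the lowest adjusted p of the comparison, 2.03e-11. Both differed from STRG.29213 in keeping a low level in the fins, at 3.09 CPM in DF and 2.88 CPM in AF for STRG.18434, and 8.93 CPM in DF and 12.9 CPM in AF for STRG.10827.

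Among the other large losses, STRG.8764 and STRG.24722 followed STRG.29213. STRG.8764 had between 0.0918 and 0.206 CPM in Pter, against 3.78 to 7.55 CPM in DS3, and averaged 0.0942 CPM in DF and 0.175 CPM in AF. STRG.24722 had 0.0918, 0.123 and 0.133 CPM in Pter, against 1.52, 11.1 and 2.73 CPM in DS3, where replicate 2 was the highest library. STRG.12024 had a difference of -4.23 and STRG.13789 one of -3.80. These 4 gene models were higher in each of the 4 spines than in Pter by their means. STRG.8764 overlaps a gene model on the other strand, as do STRG.17374, STRG.15924 and STRG.11835 below, and their reads could be shared with it.

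STRG.23624, on chromosome 18 (10318117 to 10325138, minus strand), showed another pattern. It had 0.367, 0.700 and 0.665 CPM in Pter, against 6.38, 4.55 and 6.15 CPM in DS3, a difference of -3.33 ± 0.445 (10.03-fold lower, adjusted p = 4.13e-05). Its means in the other 5 tissues ran from 6.74 CPM in DS1 to 10.1 CPM in DSL, with the fins at 8.24 CPM (DF) and 7.58 CPM (AF). Pter was thus the low tissue among the 7, with the fins in the range of the spines. For STRG.18434, STRG.10827, STRG.13789, STRG.29213, STRG.24722 and STRG.12024 Pter also had the lowest mean, but the fins were below every spine. STRG.17374 was of the same kind as STRG.23624 at a smaller size. It had 21.4, 11.4 and 15.9 CPM in Pter, against 52.5, 42.5 and 52.0 CPM in DS3, a difference of -1.63 ± 0.133 (adjusted p = 2.80e-07). Its means elsewhere were between 43.3 CPM in DF and 62.0 CPM in DS2. In all, each Pter library was below all 18 other libraries for 398 of the 1953 lower gene models (20.4%) and above all of them for 41 of the 1204 higher ones (3.41%), beside 2.27% and 0.833% of all tested gene models. The DS3 libraries are among those 18, so these counts are not independent of the comparison.

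**Figure D4:**
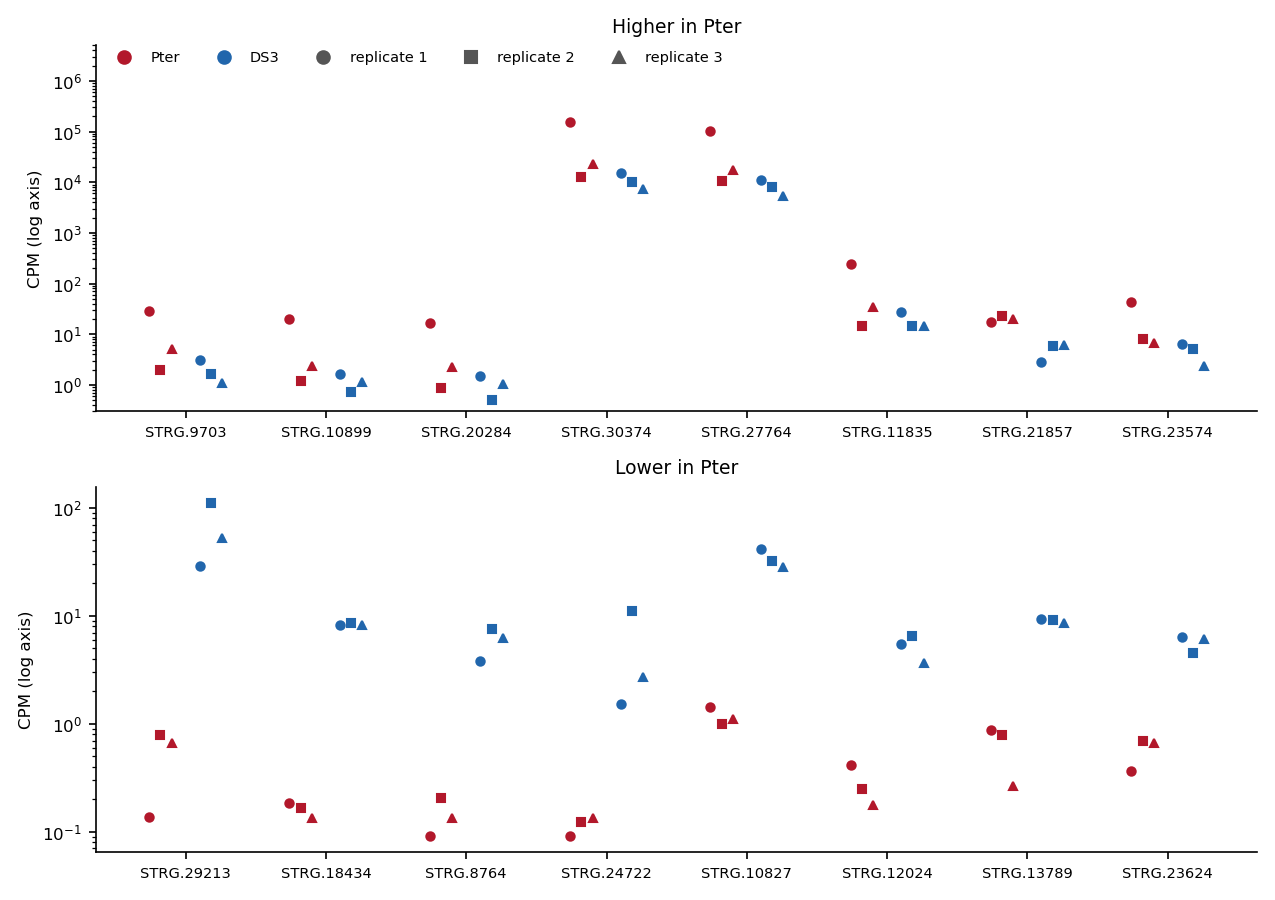
CPM (log axis) in the 3 Pter (red) and 3 DS3 (blue) libraries for the 8 gene models with the largest gains in Pter (top) and the 8 with the largest losses (bottom), outside *Hox*. Ranking was among gene models with a mean of at least 5 CPM in the higher tissue. Each moved the same way in 3 of 3 fish. Symbols give the replicate, that is the fish. In the top panel the red circle, Pter replicate 1, stands far above the other libraries for every gene model but STRG.21857, while in the bottom panel all 3 Pter libraries lie below all 3 DS3 libraries.

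Gains were ranked among gene models with a mean of at least 5 CPM in Pter that rose in 3 of 3 fish. The largest of these were of another kind. Of the 8 named by size, 7 rested on Pter replicate 1. A single library can lift a mean over 5 CPM, as for STRG.10899, at 20.0 CPM in Pter replicate 1 and 1.19 and 2.35 CPM in replicates 2 and 3. Larger gains at lower levels, such as STRG.4266 and STRG.4267 below, were outside this ranking. STRG.30374 had 153870 CPM in Pter replicate 1 and 12802 and 23091 CPM in replicates 2 and 3, against 15451, 10106 and 7510 CPM in DS3. It alone took 11.9% of the reads of Pter replicate 1, against at most 1.84% of those of any other Pter or DS3 library. The difference was 2.39 ± 0.565 (adjusted p = 0.00709), and without Pter replicate 1 it was 0.85 and did not pass (adjusted p = 0.178). STRG.27764 behaved in the same way, at 101230 CPM in Pter replicate 1, 10654 and 17478 CPM in the other Pter libraries and 5393 to 11257 CPM in DS3. STRG.9703, STRG.10899, STRG.20284, STRG.11835 and STRG.23574 were the other 5. Without Pter replicate 1 the differences of all 7 were between 0.53 and 0.95, with adjusted p values of 0.0674 to 0.516. STRG.10899, STRG.20284 and STRG.11835 also did not pass without DS3 replicate 1 (0.0579, 0.0759 and 0.0617) or DS3 replicate 2 (0.0551, 0.0978 and 0.0963). The higher gene models as a group took 12.5 ± 10.2% of the reads in Pter, against 5.10 ± 0.875% in DS3 (SD, n = 3 each).

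STRG.21857, a gene model of 24 exons on chromosome 17 (3426172 to 3439506, plus strand), was the exception. It had 17.5, 22.8 and 20.0 CPM in Pter, against 2.82, 5.96 and 6.15 CPM in DS3. All Pter libraries were higher, by 2.05 ± 0.161 (4.15-fold, adjusted p = 1.88e-07), and the call held in all 19 alternative fits. Its means were 1.86 CPM in DS1, 2.77 CPM in DS2 and 4.98 CPM in DS3, and 20.1 CPM in Pter, 40.8 CPM in DSL, 398 CPM in DF and 456 CPM in AF, so that the means rose along the midline and were highest in the fins. Pter was lower than DSL (adjusted p = 3.74e-05).

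The gains with the lowest p outside that group were smaller and found in 3 of 3 fish. STRG.30383 had 22.9, 25.1 and 25.0 CPM in Pter, against 13.5, 14.4 and 13.6 CPM in DS3 (log2 difference 0.81 ± 0.0964, adjusted p = 1.09e-05). STRG.30361 had 882, 1108 and 697 CPM in Pter, against 500.1, 354 and 309 CPM in DS3 (1.196 ± 0.142, adjusted p = 1.12e-05). Neither gene model overlapped between tissues. STRG.26751 had a difference of 1.38 (adjusted p = 1.14e-05, but 0.0755 without fish in the model) and STRG.15391 one of 1.14 (adjusted p = 1.25e-05), likewise without overlap. The fins were also above the anterior spines for all 4, by 0.85 to 1.04.

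Among the losses with the lowest p, STRG.2477 had 9.63, 7.82 and 12.5 CPM in Pter, against 105, 88.4 and 64.7 CPM in DS3 (-3.09 ± 0.256, 8.49-fold lower, adjusted p = 2.80e-07). STRG.24855 had 1.70, 1.36 and 2.66 CPM in Pter, against 11.5, 11.2 and 14.8 CPM in DS3 (-2.73 ± 0.212, adjusted p = 1.88e-07). In both, each of the 4 spines had a higher mean than Pter or either fin.

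STRG.14252 lies within the *HOXBA* cluster, between *HOXB9A* and *HOXB13A*. It lies on chromosome 11 (1501341 to 1516629, minus strand), 9396 bp from the end of *HOXB9A* with 1 gene model between them. It had 5.73, 3.42 and 2.75 CPM in Pter, against 17.8, 12.95 and 10.1 CPM in DS3, a difference of -1.80 ± 0.148 (adjusted p = 2.80e-07). Pter was near DSL, with a difference of -0.21 that did not pass (adjusted p = 0.341), as was also the case for *HOXB9A* (-0.32, adjusted p = 0.186). For both gene models DS1, DS2 and DS3 had the highest means, and the fins the lowest.

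Runs of neighbouring gene models that were all at least 2-fold lower in Pter were mostly short. There were 399 single models, 35 runs of 2, 3 of 3, 2 of 4 and 1 of 5. The run of 5 lay on chromosome 15 (8371069 to 8403017) and held STRG.19972, STRG.19974, STRG.19975, STRG.19976 and STRG.19977, with differences between -3.32 and -1.21. STRG.19975, a member with high counts in DS3, had 88.5, 33.2 and 72.9 CPM in Pter, against 630, 678 and 336 CPM in DS3 (-3.13 ± 0.387, adjusted p = 1.71e-05). STRG.19972 was the one whose libraries overlapped, at 16.1, 12.7 and 45.05 CPM in Pter, against 49.9, 33.8 and 72.5 CPM in DS3, and it lost its call without fish in the model (adjusted p = 0.372).

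A run of 4 on chromosome 12 (6945043 to 7163070) was uneven. STRG.15924, with 6.93, 2.68 and 5.41 CPM in Pter against 23.5, 20.7 and 15.6 CPM in DS3, and STRG.15926 were lower in 3 of 3 fish. STRG.15928 and STRG.15929 rested on DS3 replicate 2, at 8.36 and 8.96 CPM there, and without that library their adjusted p values were 0.313 and 0.204. STRG.15928 also did not pass without Pter replicate 2 (0.334) or DS3 replicate 3 (0.0565), and STRG.15929 passed in 1 of the 6 fits that left out 1 library, with adjusted p values of 0.0570 (without Pter replicate 1) to 0.309 in the others. Among the higher runs, STRG.4266 and STRG.4267 on chromosome 3 rested on Pter replicates 2 and 3. In DS2 of the same fish both were higher than in Pter. The DS2 values of replicates 2 and 3 were 9.48 and 10.5 CPM for STRG.4266, and 1.22 and 1.29 CPM for STRG.4267. STRG.4266 had 0.0459, 3.25 and 9.89 CPM in Pter, against 0.148, 0.0429 and 0.200 CPM in DS3, and its adjusted p was 0.261 without fish in the model, 0.0561 without DS3 replicate 2 and 0.139 without DS3 replicate 3. STRG.4267 (adjusted p = 0.0383) passed in 1 of the 6 fits that left out 1 library, with adjusted p values of 0.0591 to 0.276 in the others (0.0604 without Pter replicate 1).

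Some gene models had reads in 1 of the tissues only. STRG.21236 had 0 reads in the 3 Pter libraries and 73 in DS3, at 1.00, 0.858 and 0.865 CPM, so it was at least 20.8-fold lower in Pter with a floor of 3 counts over the group (adjusted p = 8.09e-05). It averaged 0.740 CPM in DS1, 1.10 CPM in DS2 and 0.692 CPM in DSL, and below 0.06 CPM in each fin. STRG.17764 had 0 reads in Pter and 56 in DS3, most of them in replicate 2, and was below the filter. In the other direction, STRG.4267 had 32 reads in Pter and 0 in DS3, and STRG.13625 had 14 and 0. The Pter reads of STRG.4267 were 0, 4 and 28 in replicates 1, 2 and 3.

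The 6 most abundant gene models, apart from STRG.30374, differed little. STRG.2544, STRG.15116, STRG.6982, STRG.14942 and STRG.24405 had differences of 0.15 to 0.21, none of which passed (adjusted p = 0.522 to 0.678). With library totals those of STRG.15116 and STRG.14942 turned to -0.05 and -0.04. STRG.2544 had 60698, 96347 and 89609 CPM in Pter, against 62443, 79835 and 70109 CPM in DS3, and the ranges overlapped.

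The gene models lower in Pter were longer than those higher in it. Their median summed exon length was 3254 bp with 9 exons, against 2343.5 bp with 8 exons for the higher ones and 2491.5 bp with 7 exons for all tested. On the assembled chromosomes, the share of tested gene models that were lower in Pter ran from 8.19% on chromosome 14 to 12.98% on chromosome 10, and the share that were higher from 3.64% on chromosome 2 to 7.32% on chromosome 11.

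The fins gave a reading of the same gene models in libraries outside the comparison. This was added after the data were seen, and used the 6 DF and AF libraries against the 6 DS1 and DS2 libraries, which share the fish and the model but no library with Pter or DS3. Of the 491 gene models at least 2-fold lower in Pter, 327 were also lower in the fins than in the anterior spines (66.6%, against 20.8% of all tested gene models), and 39 were higher (7.94%). Of the 174 at least 2-fold higher in Pter, 99 were higher in the fins (56.9%, against 21.2% of all tested) and 19 were lower (10.9%). For the alternatives only the fin comparison was refitted, and the sets of 491 and 174 stayed those of the main fit. Without fish in the model these shares were 53.6% against a background of 9.03%, and 40.2% against 13.1%. With library totals they were 58.5% against 9.35%, and 59.8% against 30.3%.

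**Figure D5:**
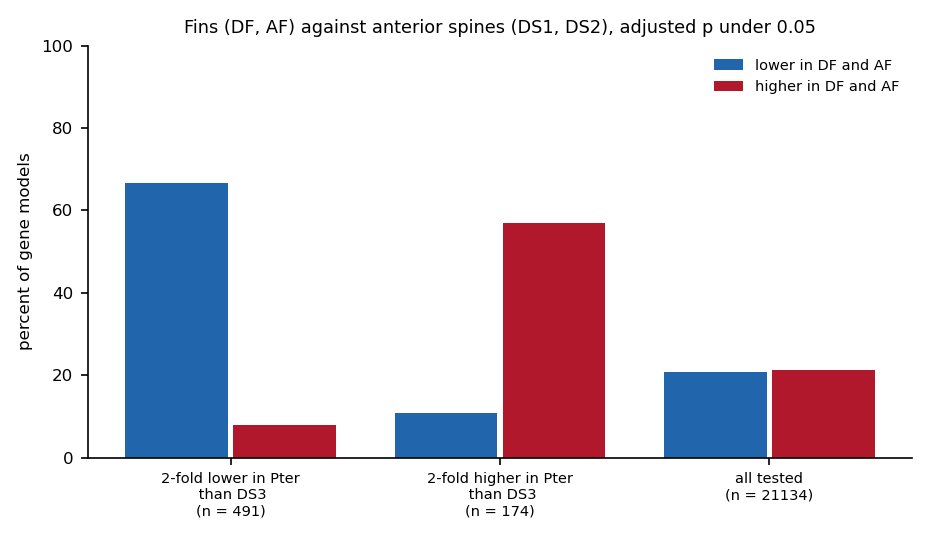
Percent of gene models that were lower (blue) or higher (red) in the fins than in the anterior spines at an adjusted p under 0.05, for those at least 2-fold lower in Pter than DS3 (491), those at least 2-fold higher (174) and all tested (21134). The first set is mostly lower in the fins (66.6%) and the second mostly higher (56.9%), beside 20.8% and 21.2% of all tested.

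The named gene models shared this only in part. Of the 8 losses named by size, 7 were also lower in the fins, with log2 differences between -6.64 (STRG.8764) and -1.87 (STRG.13789). STRG.23624 was the exception at 0.14 (adjusted p = 0.630). The 7 gains that rested on Pter replicate 1 had fin differences of -0.45 to 0.62, none of which passed (adjusted p = 0.105 to 0.925). STRG.21857 was higher in the fins by 7.58. All *Hox* genes that passed between Pter and DS3, except *HOXA11A*, differed in the fins in the direction found in Pter. *HOXB9A*, for example, was lower in the fins by a difference of -3.97 and *HOXC10A* higher by 4.01. *HOXA11A* was higher in the fins by 0.80 (adjusted p = 1.01e-06) and lower in Pter, so its direction was opposite in the fins and Pter. STRG.4266 and STRG.4267, both higher in Pter, also went the opposite way. Their fin differences were -9.08 (adjusted p = 5.74e-05) and -6.56 (adjusted p = 0.00204), with no reads in DF or AF.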

How the data were processed

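The values were read counts per gene model, one column per library, deposited by the authors as whole numbers without normalization. The authors built gene models with StringTie on their own *Apeltes* assembly, whose scaffolds follow the *Gasterosteus* chromosomes, and named *Hox* genes by BLAST. The submitters' processing notes name Trim Galore, cutadapt 2.4, FastQC 0.11.9, STAR, and featureCounts of Subread 2.0.1. The kit marked strand. If reads were assigned by strand is not given in the sources used here, so overlapping models are uncertain. The other 85 columns were not used here.

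Counts of all 21 L/L libraries were fitted with edgeR 4.0.16 in R 4.3.3, using filterByExpr (which set aside 0.0403% of counts), TMM factors (0.773 to 0.797 in Pter, 0.861 to 0.937 in DS3), tissue and fish as terms and a two-sided quasi-likelihood F test, adjusted over 21134 gene models at 0.05. Fish was the block because replicate numbers stand for fish in the titles. After removal of tissue means, residuals of Pter and DS3 correlated across genes at 0.554 to 0.652 within a fish and -0.391 to -0.164 between fish, a sign that centring itself produces between fish. SE was taken as the difference over the root of F. CPM uses TMM-scaled totals of tested genes. Counting intervals are at 95%, assume independent reads and cover counting error only. Replicates were not duplicates (chi-square per degree of freedom 33.3 to 308). Procedures were tested on simulated data drawn from the fitted model itself. Such data cannot test the choice of fish term or of scaling, or the weight of Pter replicate 1.

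Named were the *HOXDB* genes, all other *Hox* genes that passed, the 8 higher and 8 lower with the largest difference (same direction in 3 of 3 fish, mean of at least 5 CPM in the higher tissue), the 4 and 4 with the next lowest p, the 6 most abundant, the 2 longest runs and the 2 gene models with most reads against 0 in each direction. Members and lists were chosen with earlier results of these data known. Alternatives were no fish term, the 6 libraries alone with and without it, RLE, upper quartile and library totals, DESeq2 1.42.0, limma-voom (limma 3.58.1), no filter, a filter of 1 CPM in 3 libraries, and leaving out each fish and each library. Calls lost with a whole fish left out, or with the 6 libraries alone, are given for only some gene models.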

Additional observations from a re-analysis of the deposited data

How the results depend on the processing

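Pairing decided the number of calls. Without the replicate block, 657 gene models passed (146 higher, 511 lower, 361 at 2-fold or more, 8 *Hox* genes), and with the 6 libraries alone and no block 139 (10 higher, 129 lower, 128 at 2-fold or more, 2 *Hox* genes). The 6 libraries with the block gave 2612. RLE, upper quartile, DESeq2, limma-voom and both filters gave between 2910 and 3551. With library totals 283 were higher and 4063 lower, and the *Hox* medians were -0.37 over all *Hox* genes, -0.62 in *HOXAA*, 0.0882 in *HOXAB*, -0.84 in *HOXBA*, -0.53 in groups 1 to 8 and 0.0882 in groups 9 to 13, while STRG.15116 and STRG.14942, which did not pass, turned to -0.0515 and -0.0448. TMM factors were lower in Pter (0.773 to 0.797) than in DS3 (0.861 to 0.937), and library totals leave them out for every gene model alike. The median of all tested gene models moved the same way, as given above. What lay behind the lower factors in Pter was not tested.

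Leaving out 1 fish or 1 library gave 733 to 3249 calls, 202 to 1454 higher, 531 to 1795 lower, 312 to 743 at 2-fold or more and 10 to 14 *Hox* genes. The fish of replicate 2 lowered the count most (733 without it). The medians ran from -0.243 to -0.0409 over all *Hox* genes, 0.23 to 0.57 in *HOXAB*, -0.57 to -0.30 in *HOXAA*, -0.80 to -0.56 in *HOXBA*, -0.28 to -0.18 in *HOXCA*, 0.0353 to 0.271 in *HOXDA*, 0.278 to 0.756 in *HOXDB*, -0.35 to -0.12 in groups 1 to 8, 0.156 to 0.318 in groups 9 to 13 and 0.55 to 0.89 in groups 10 to 13. Of gene models at 2-fold or more, 339 of 491 lower (69.0%) and 66 of 174 higher (37.9%) held without any 1 Pter or DS3 library.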
